A study of Mus musculus with 3 samples.

Results

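The genes described here are 10 rapid response genes, *Fos*, *Fosb*, *Jun*, *Junb*, *Egr1*, *Atf3*, *Ier2*, *Hspa1a*, *Hspa1b* and *Dnajb1*, of 32285 genes counted in single cells of the mouse soft palate of E14.5 embryos. They were chosen by name, as immediate early and heat shock genes, and not by a rule on their values. Earlier results of these data were known at that time. All 10 were found in the count tables. The series holds 3 libraries on the C57BL/6 strain: 2 controls, named by the study's methods as *Tgfbr1* fl/fl or fl/+ embryos, and 1 *Osr2-Cre;Alk5fl/fl* library, called the mutant here. *Alk5* is another name of *Tgfbr1*, a receptor for TGF-β, and the *Osr2* driver removes it in the palatal mesenchyme and not in muscle precursors. Both genotypes were dissected, shaken in warm TrypLE, an enzyme mix that frees single cells, and read from the 3′ ends of transcripts by droplet sequencing. Neither the number of embryos behind a library nor their sex is given. The tests took out each library's own level as a block. Every p-value below thus measures how differences between groups of cells vary among 3 libraries, with controls and mutant pooled.

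Immediate early genes are switched on within minutes of a signal, without new protein synthesis, through growth factor, calcium and stress kinases that act on transcription factors already bound at their promoters. *Fos*, *Fosb*, *Jun* and *Junb* encode subunits of AP-1, *Egr1* a zinc finger factor, *Atf3* a stress-inducible relative of the CREB factors, and *Ier2* a small nuclear protein. *Hspa1a* and *Hspa1b* encode the inducible Hsp70 chaperones and *Dnajb1* encodes their Hsp40 partner, all induced by heat shock factors when proteins misfold. These genes are also known to respond to warm enzymatic dissociation of tissue. No undissociated tissue was measured, so transcripts made in the embryo and transcripts made in the tube cannot be told apart.

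RefSeq promoters of GRCm38.p6 were used for 8 of the 10 genes. Those of *Egr1* and *Ier2* were not searched, so the motif counts below do not cover these genes. The 250 bases before the start of 3 of them are given as examples of a cAMP response half-site with a TATA box, a half-site alone and a heat shock element, with all matches to the motifs named below in capitals. *Fos* lies at chr12:85473640-85473889 on the plus strand, *Atf3* at chr1:191183334-191183583 on the minus strand and *Hspa1a* at chr17:34972157-34972406 on the minus strand. The *Atf3* window lies inside the longest GENCODE extent of the gene, so RefSeq's start is an inner one.
Fos: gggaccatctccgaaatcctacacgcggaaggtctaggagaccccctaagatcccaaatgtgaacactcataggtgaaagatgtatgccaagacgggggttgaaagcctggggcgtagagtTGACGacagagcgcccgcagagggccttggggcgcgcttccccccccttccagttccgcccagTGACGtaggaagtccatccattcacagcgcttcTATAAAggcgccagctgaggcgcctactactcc
Atf3: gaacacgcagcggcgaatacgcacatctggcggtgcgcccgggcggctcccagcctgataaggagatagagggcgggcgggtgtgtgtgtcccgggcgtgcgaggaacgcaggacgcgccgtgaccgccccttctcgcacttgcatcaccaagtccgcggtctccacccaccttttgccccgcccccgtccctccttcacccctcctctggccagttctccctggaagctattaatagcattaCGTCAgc
Hspa1a: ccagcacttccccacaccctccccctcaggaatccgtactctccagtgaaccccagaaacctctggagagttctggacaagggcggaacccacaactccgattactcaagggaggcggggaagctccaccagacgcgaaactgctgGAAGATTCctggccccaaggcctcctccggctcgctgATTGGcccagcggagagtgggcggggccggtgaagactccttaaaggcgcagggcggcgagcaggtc

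The cAMP response half-site TGACG, searched on both strands, lay in 5 of the 8 promoters, those of *Fos*, *Fosb*, *Junb*, *Atf3* and *Dnajb1*, against 17.9% of 27025 promoters of the same length. *Fos* held it at positions -129 to -125 and -66 to -62 from its start, and *Atf3* held it on the other strand at -7 to -3. The head-to-head heat shock element GAANNTTC lay in 3 promoters, those of *Hspa1a*, *Hspa1b* and *Jun*, against 6.78% of all. It stood at -104 to -97 in both Hsp70 genes. TATAAA was found only in *Fos* among these 8, at -33 to -28, against 12.97% of all, and CCAAT was found in 5 of the 8 against 34.5% of all. No match was found in these windows for the tail-to-tail element TTCNNGAA, the AP-1 site TGANTCA or the CArG box, which were in 7.10%, 6.87% and 1.40% of all promoters. The *Hspa1b* window was identical to that of *Hspa1a* at 247 of 250 bases and differed by C44T, T47C and T249G, counted from 1 at the 5′ end with the *Hspa1a* base first.

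Because the Hsp70 genes are near copies, their 3′ ends were compared in the GENCODE M21 transcripts. Of 403 windows of 98 bases in the last 500 bases of *Hspa1a*, 0 were found in *Hspa1b*, whereas 47.5% of the windows of the whole transcript were shared. A 3′ tag from the last 500 bases therefore names one gene, and a tag from further upstream can be lost or split. *Junb* overlaps *Prdx2* and *Jun* overlaps *Junos* on the opposite strand, which a strand-marking 3′ kit separates.

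The libraries held 2816, 4067 and 8690 barcodes in control 1, control 2 and the mutant, with between 22624711 and 63505144 unique molecular identifiers (UMIs), and 2117, 3821 and 8111 cells passed the filters. Pairs of libraries shared between 18 and 49 barcodes. Cells were typed by marker genes that include none of the 10. In the tested types at least 91.9% of gated cells had the same type by the nearest mean profile of 2000 variable genes. Those means came from the same gated cells and the markers were not taken out, so this is not an independent check. A type was tested where every library had at least 20 of its cells, which left mesenchymal, epithelial, endothelial, myogenic and myeloid cells. Control 1 gave 20 endothelial and 35 myeloid cells, the fewest behind any value tested in the main analysis. Some alternative analyses rest on fewer cells. Over all kept cells *Tgfbr1* was at 55.1, 59.7 and 53.0 CPM (UMIs of the gene scaled to 1000000 UMIs of the cells summed). A 3′ tag need not cover the deleted stretch, so this does not check the genotype.

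In gated mesenchymal cells, 1018, 1565 and 3113 per library, the AP-1 genes and *Egr1* were abundant and the Hsp70 genes were scarce. Summed over the 7 immediate early genes, these cells held 2172, 1901 and 2474 CPM. Values are given in the order control 1, control 2, mutant throughout. A UMI marks 1 transcript end, so CPM does not grow with gene length. *Hspa1a* was at 4.15, 2.60 and 4.40 CPM and *Hspa1b* at 1.74, 0.865 and 0.751 CPM in the same cells. *Dnajb1*, the Hsp40 partner, was at 114, 62.2 and 68.8 CPM. Over all kept cells the constitutive chaperones were far higher, with *Hspa8* at 734 to 943 CPM and *Hsp90ab1* at 1426 to 1696 CPM.

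**Figure D1:**
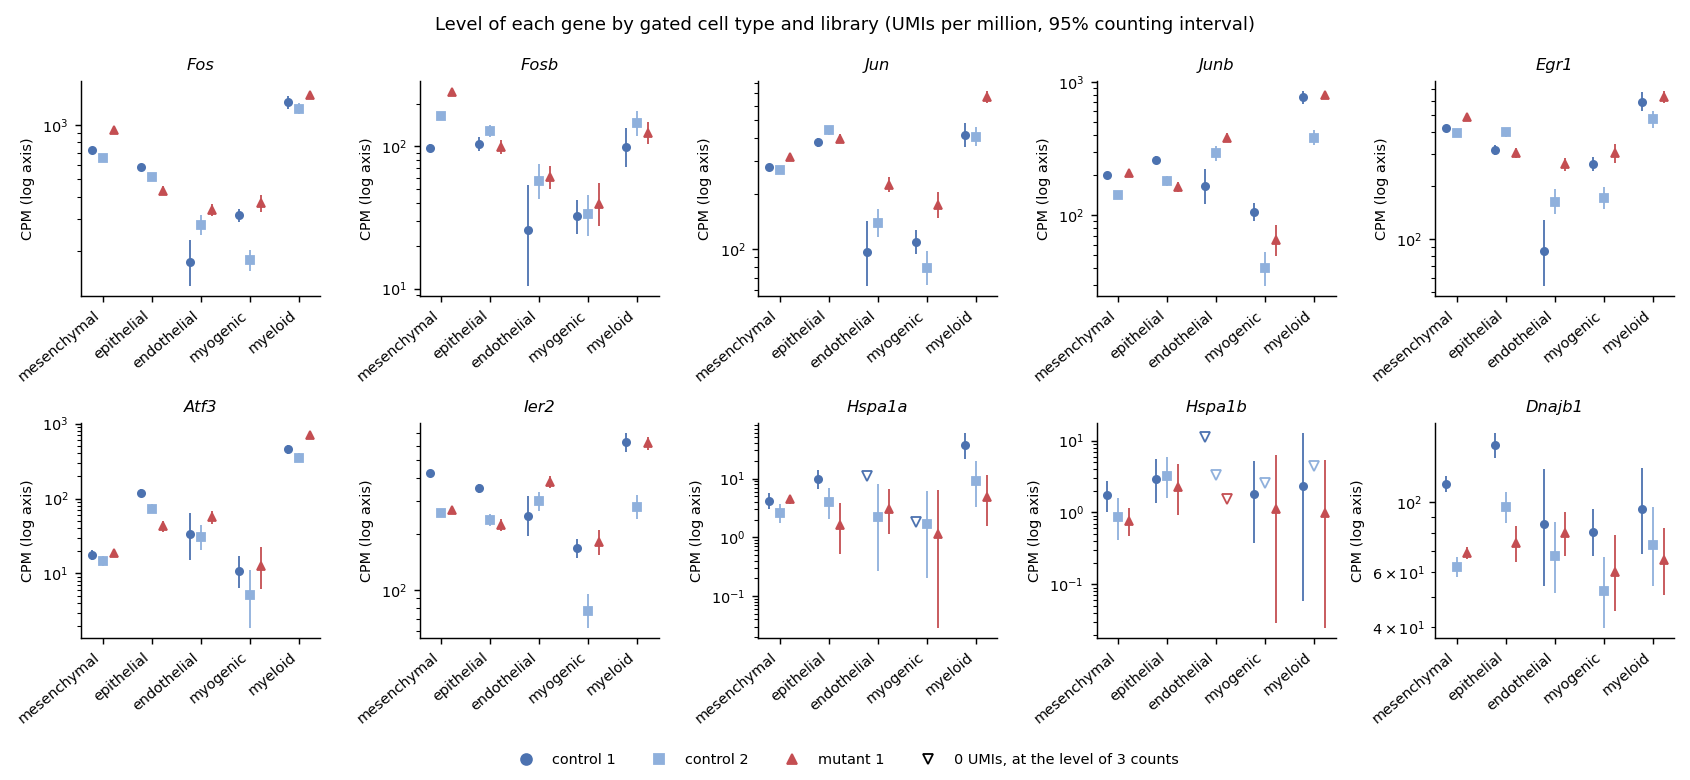
CPM (log axis, a scale for each gene) of the 10 genes in 5 gated cell types, with 1 point for each library and a 95% exact Poisson interval that covers counting error only. *Fos*, *Atf3* and *Junb* were highest in myeloid cells in every library, and *Hspa1a* and *Hspa1b* had at most 6 UMIs in endothelial and myogenic cells; open triangles mark 0 UMIs, drawn at the level of 3 counts.

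Levels of these genes differed between cell types. *Hspa1b* was too rare for the count filter, and of the 9 genes tested 8 differed among the 5 types, all but *Dnajb1* (edgeR quasi-likelihood test with the library as a block, adjusted p = 0.105), against 79.3% of the 11659 genes tested. Most genes thus differed among these types. In myeloid cells 8 of the 9 were higher than the mean of the other types and 0 were lower, against 22.5% and 21.2% of all genes. The 8 include *Hspa1a*, which passed the count filter through myeloid and epithelial sums of the controls, where it was high. In myogenic cells 7 were lower and 0 higher, against 21.8% and 19.1%. The 7 include *Hspa1a* too, set against a mean that holds the sums which admitted it. Epithelial cells had 2 higher and 0 lower, against 21.8% and 15.1%, and endothelial cells had 1 higher and 4 lower, against 17.2% and 13.4%. Mesenchymal cells had 3 higher and 2 lower, against 31.2% and 20.1%. Leaving out a library moved the smaller counts. Without control 2 there was 1 lower in mesenchymal and 1 higher in epithelial cells, where 1504 and 1686 of all 11926 genes were. Without control 1 there were 3 lower in mesenchymal cells and 1 higher and 3 lower in epithelial cells. Of all 11659 genes these were 2487, 2138 and 1529. Without the mutant 4 were higher in epithelial cells, where 2113 of 11582 genes were. The mean of the other types includes the myeloid cells wherever another type is tested, which weighs most on *Atf3*.

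*Fos*, the inducible partner of the Jun proteins, was at 1333, 1224 and 1465 CPM in myeloid cells. It was at 728, 658 and 935 CPM in mesenchymal cells and at 580, 511 and 432 CPM in epithelial cells. Endothelial cells had 174, 278 and 336 CPM and myogenic cells 315, 178 and 367 CPM. The order myeloid, mesenchymal, epithelial held in each of the 3 libraries, while endothelial and myogenic cells changed places. The log2 difference from the mean of the other types was 1.89 ± 0.12 (SE) in myeloid cells, 0.54 ± 0.12 in mesenchymal, -0.90 ± 0.14 in myogenic and -1.26 ± 0.15 in endothelial cells, with adjusted p between 3.56e-12 and 0.000767 (edgeR). In epithelial cells it was -0.27 ± 0.13 and did not pass (adjusted p = 0.120).

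*Fosb*, whose protein can take the place of Fos in AP-1, did not follow *Fos* in its order. It was at 97.2, 165 and 240 CPM in mesenchymal cells, 99.65, 145 and 124 CPM in myeloid cells and 104, 128 and 99.4 CPM in epithelial cells. Mesenchymal cells were the highest of the 5 types in control 2 and in the mutant but not in control 1. Mesenchymal cells were 1.07 ± 0.13 higher on the log2 scale than the mean of the other types, and myeloid cells 0.89 ± 0.18 higher (edgeR, adjusted p = 4.76e-07 and 0.000226). Endothelial and myogenic cells had 25.9 to 60.7 CPM and were both lower, by -0.99 ± 0.20 and -1.29 ± 0.20.

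*Jun*, the AP-1 subunit that can bind DNA as a pair with itself, was at 417, 408 and 672 CPM in myeloid cells and 380, 441 and 396 CPM in epithelial cells. It was at 278, 267 and 315 CPM in mesenchymal cells. Epithelial and myeloid values overlapped, and control 2 had its highest *Jun* in epithelial cells. Epithelial cells were higher than the mean of the other types by 0.65 ± 0.12 and myeloid cells by 1.39 ± 0.13 (edgeR, adjusted p = 0.000145 and 2.17e-09). Endothelial cells had 96.3, 139 and 224 CPM and myogenic cells 109, 79.2 and 173 CPM, both below every mesenchymal library, with log2 differences of -0.95 ± 0.15 and -1.17 ± 0.15.

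*Junb*, an AP-1 subunit that activates transcription less strongly than Jun, was at 765, 382 and 799 CPM in myeloid cells, where control 2 had less than the other two. In the other types it was highest in endothelial cells of control 2 and the mutant, at 290 and 382 CPM, and at 167 CPM in the 20 endothelial cells of control 1, where epithelial cells had 261 CPM. The endothelial difference was 0.52 ± 0.18 (edgeR, adjusted p = 0.0312) and did not pass without control 2, without the mutant, with DESeq2 or without the library block. In the main analysis *Junb* was thus the only member called higher in endothelial cells, where *Fos*, *Fosb*, *Jun* and *Egr1* were called lower. Myogenic cells had 106, 40.02 and 65.6 CPM, below every other tested type, with a log2 difference of -1.81 ± 0.21.

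*Egr1* was at 596, 475 and 637 CPM in myeloid cells, 422, 397 and 488 CPM in mesenchymal cells and 318, 401 and 305 CPM in epithelial cells. Endothelial cells had 85.2, 162 and 263 CPM, the lowest of the 5 types in each library. The endothelial difference was -1.14 ± 0.17 and the myeloid difference 1.19 ± 0.14 (edgeR, adjusted p = 1.20e-05 and 2.76e-07). In mesenchymal cells the difference of 0.37 ± 0.14 passed (adjusted p = 0.0264), as it did in 10 of 15 alternative analyses, and in myogenic cells -0.30 ± 0.15 did not (adjusted p = 0.122).

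*Ier2* was at 626, 281 and 618 CPM in myeloid cells, with control 2 below the other two and below its own endothelial level of 300.4 CPM. In mesenchymal cells it was at 429, 259 and 270 CPM, with control 1 above both others. Control 1 was also the highest in epithelial cells, at 353 CPM against 239 and 224 CPM. The myeloid difference of 1.19 ± 0.15 and the myogenic difference of -1.10 ± 0.18 passed (edgeR, adjusted p = 7.66e-07 and 2.50e-05), while mesenchymal, epithelial and endothelial cells did not stand apart from the mean.

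*Atf3* was the most cell type dependent of the 10, leaving out *Hspa1a* and *Hspa1b*, whose lowest types held too few UMIs for a ratio. Myeloid cells had 457, 352 and 702 CPM, epithelial cells 120, 73.6 and 42.4 CPM, endothelial cells 33.3, 30.9 and 56.1 CPM, mesenchymal cells 17.6, 14.8 and 19.0 CPM, and myogenic cells 10.8, 5.11 and 12.4 CPM. Every myeloid library lay above every library of the other types, and the myeloid level was 42.3, 69.0 and 56.4 times the myogenic level. The lowest of these values rests on 6 UMIs in control 2. The myeloid log2 difference was 4.42 ± 0.19 and the mesenchymal difference -2.02 ± 0.23 (edgeR, adjusted p = 1.31e-15 and 1.54e-07). The epithelial difference of 0.64 ± 0.21 passed (adjusted p = 0.0204) but not in 4 of 15 alternative analyses.

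**Figure D2:**
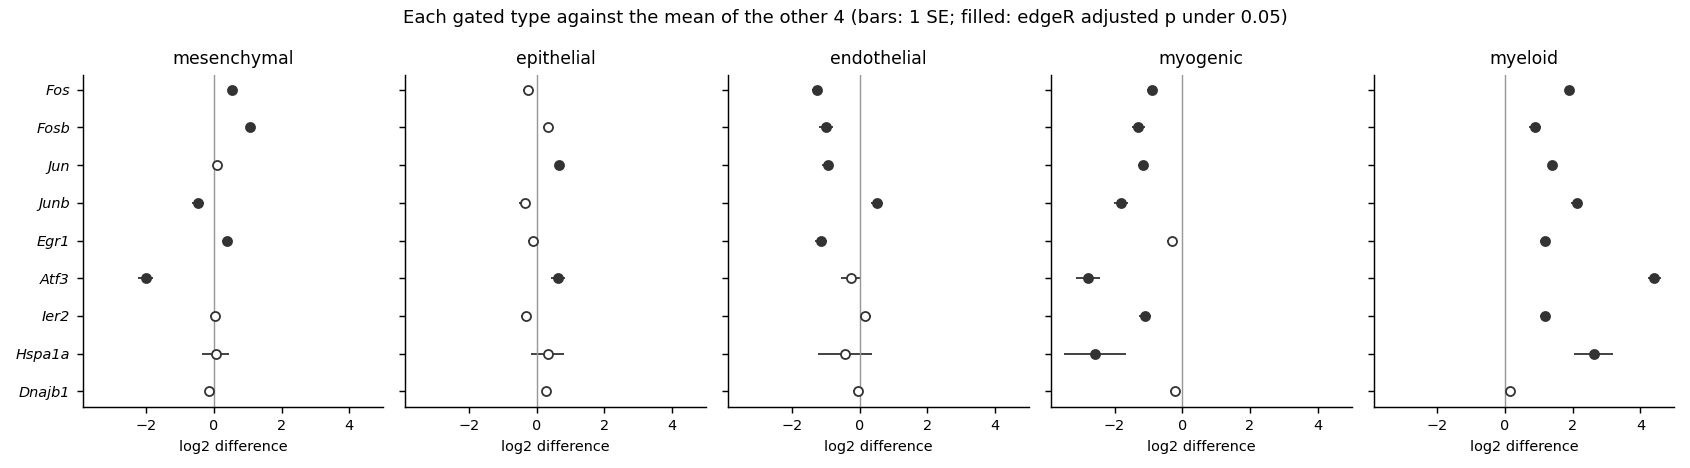
Log2 difference (x axis) of each gated type from the mean of the other 4 for the 9 genes tested, with bars of 1 SE and filled points at an edgeR adjusted p under 0.05. All 9 points lay to the right of 0 in myeloid cells, where *Dnajb1* did not pass, and to the left in myogenic cells, where *Egr1* and *Dnajb1* did not pass.

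The Hsp70 genes rested on few UMIs everywhere. *Hspa1a* had 43, 30 and 129 UMIs in mesenchymal cells, and 30, 12 and 5 UMIs in epithelial cells. In myeloid cells it had 16, 6 and 5 UMIs, or 37.1, 8.96 and 4.87 CPM, so control 1 was high and the mutant low, and the 95% counting interval of the mutant ran from 1.58 to 11.4 CPM. The myeloid log2 difference was 2.62 ± 0.58 (edgeR, adjusted p = 0.000723). *Hspa1a* passed the count filter through its highest sums. These were myeloid cells of control 1 and control 2 and epithelial cells of control 1, at 37.1, 8.96 and 9.88 CPM. Its myeloid call thus uses values that admitted it to the test, and it adds no support to the count of higher members. Without control 1, after thinning or with types of at least 10 cells *Hspa1a* did not pass the filter, and no test could be made. Myogenic cells had 0, 2 and 1 UMIs, where the limit of 3 counts set for a count of 0 is 1.80 CPM in control 1. They were lower than the mean of the other types (edgeR, adjusted p = 0.0276). That mean holds the sums that admitted *Hspa1a*, so the myogenic call adds no support to the count of lower members. *Hspa1b* had at most 22 UMIs in any type and library, with 9, 10 and 7 in epithelial cells.

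*Dnajb1* differed less between the types than the 7 immediate early genes did. It was at 152, 96.4 and 74.0 CPM in epithelial cells, 95.02, 73.1 and 65.3 CPM in myeloid cells and 80.4, 51.9 and 60.0 CPM in myogenic cells. Its highest type exceeded its lowest by 1.89, 1.86 and 1.33 times in the 3 libraries, against 7.66, 6.88 and 4.36 times for *Fos*. Control 1 had more *Dnajb1* than control 2 in each of the 5 types. No type differed from the mean of the others in the main analysis, with log2 differences from -0.22 ± 0.14 to 0.26 ± 0.11 and the lowest adjusted p at 0.0770 (edgeR). With total UMIs in place of TMM factors, *Dnajb1* did differ among the types and was lower in myogenic cells. It also differed among the types without the mutant and with types of at least 10 cells.

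The types with fewer cells were described without a test in the main analysis. Neuronal cells, 13, 13 and 332 per library, had 454, 616 and 642 CPM summed over the 7 genes. Erythroid cells were lower than that in the controls, at 412 and 586 CPM, but not in the mutant, at 1371 CPM, and myogenic cells of control 2 were lower too, at 583 CPM. With types of at least 10 cells in every library admitted, neuronal cells were lower than the mean of the other types for 8 of 8 genes tested, against 18.7% of 10907 genes, and glial cells were higher for 1, *Fos*, against 5.88%. *Fos* in glial cells, 11, 26 and 93 per library, was at 552, 694 and 1683 CPM, so the mutant was above both controls. Cells that reached no gate, 346, 1377 and 2815, had 2088, 1753 and 2151 CPM summed over the 7 genes, near the mesenchymal levels. Barcodes removed by the filters held less *Fos*, 150, 45.9 and 28.1 CPM.

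To compare cells at equal depth, each cell was thinned to 2000 UMIs. *Fos* was then detected in 62.8%, 62.5% and 73.7% of mesenchymal cells, with 95% exact intervals of 59.8 to 65.8%, 60.0 to 64.9% and 72.1 to 75.2%. At least 4 of the 7 immediate early genes were detected in 23.9%, 19.99% and 29.6% of mesenchymal cells and none in 9.64%, 11.2% and 8.80%. Of myeloid cells, 57.6%, 39.1% and 71.8% had at least 4, and of myogenic cells 6.38%, 1.60% and 9.48%. In the mutant's 325 neuronal cells, *Fos* was detected in 27.4% and none of the 7 in 43.1%. Myeloid cells of that library had *Fos* in 84.6%, so at equal depth the share differed between types of 1 library by more than the counting intervals. *Hspa1a* was detected in 0.688%, 0.588% and 1.01% of mesenchymal cells. It was detected in 0.615% of the mutant's neuronal cells, on 2 of 325 cells, where the interval of 0.0746 to 2.21% spans the mesenchymal share. The part of free RNA was not measured for any of these genes.

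**Figure D3:**
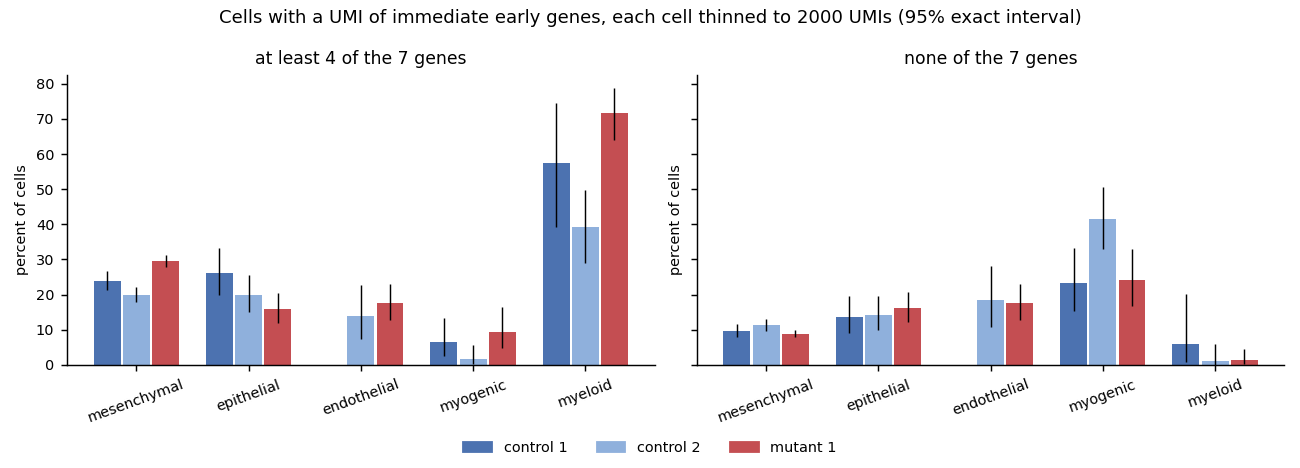
Percent of cells (y axis) with a UMI of at least 4 (left) or none (right) of the 7 immediate early genes after thinning to 2000 UMIs, by type and library, with 95% exact intervals. Of the types drawn for each library, myeloid cells had the most cells with at least 4 genes and myogenic cells the most with none. The 16 thinned endothelial cells of control 1 are not drawn. Of these, 31.25% (5 cells) had none, against 23.4% of myogenic cells of that library.

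Mesenchymal cells with *Fos* also held the other immediate early genes more often than cells without it. Of thinned mesenchymal cells with *Fos*, 55.6%, 51.9% and 53.9% also held *Egr1*, against 37.6%, 30.7% and 25.6% of cells without *Fos*. *Junb* was in 32.9%, 23.9% and 32.6% of cells with *Fos* and in 20.6%, 15.3% and 16.0% of those without. *Dnajb1* differed less, at 22.7%, 10.7% and 12.4% with *Fos* and 18.8%, 10.1% and 8.91% without. These shares describe cells of 1 library and were not tested.

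Within the mesenchyme, cells were split by perimysial markers (396, 414 and 824 cells), osteogenic markers (109, 49 and 410 cells) or neither (513, 1102 and 1879 cells), tests that were added after the data were seen. *Egr1* was at 472, 491 and 606 CPM in perimysial cells against 379, 341 and 386 CPM in the remaining cells. It was the only one of 9 genes that differed, by 0.40 ± 0.07 (edgeR, adjusted p = 0.00423), with 3.37% of 12266 genes higher and 2.91% lower. The call was lost without control 2 or without the mutant, where far fewer of all genes were called. Of all genes 40 were higher and 8 lower of 12343 without control 2. Without the mutant it was 129 and 64 of 12345, against 413 and 357 of 12266 in the main analysis. In osteogenic cells *Jun* was at 164, 136 and 229 CPM against 315, 286 and 319 CPM in the remaining cells, and *Junb* was at 231, 173 and 276 CPM against 192, 140 and 181 CPM. The 2 Jun genes thus lay on opposite sides, with *Jun* lower by -0.67 ± 0.10 and *Junb* higher by 0.52 ± 0.09 (edgeR, adjusted p = 0.000123 and 0.000460), where 6.46% of genes were lower and 8.56% higher. Without control 1, which left 49 osteogenic control cells, 4 members were higher in osteogenic cells in place of 1. Of all 12822 genes 1061 were higher there.

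**Figure D4:**
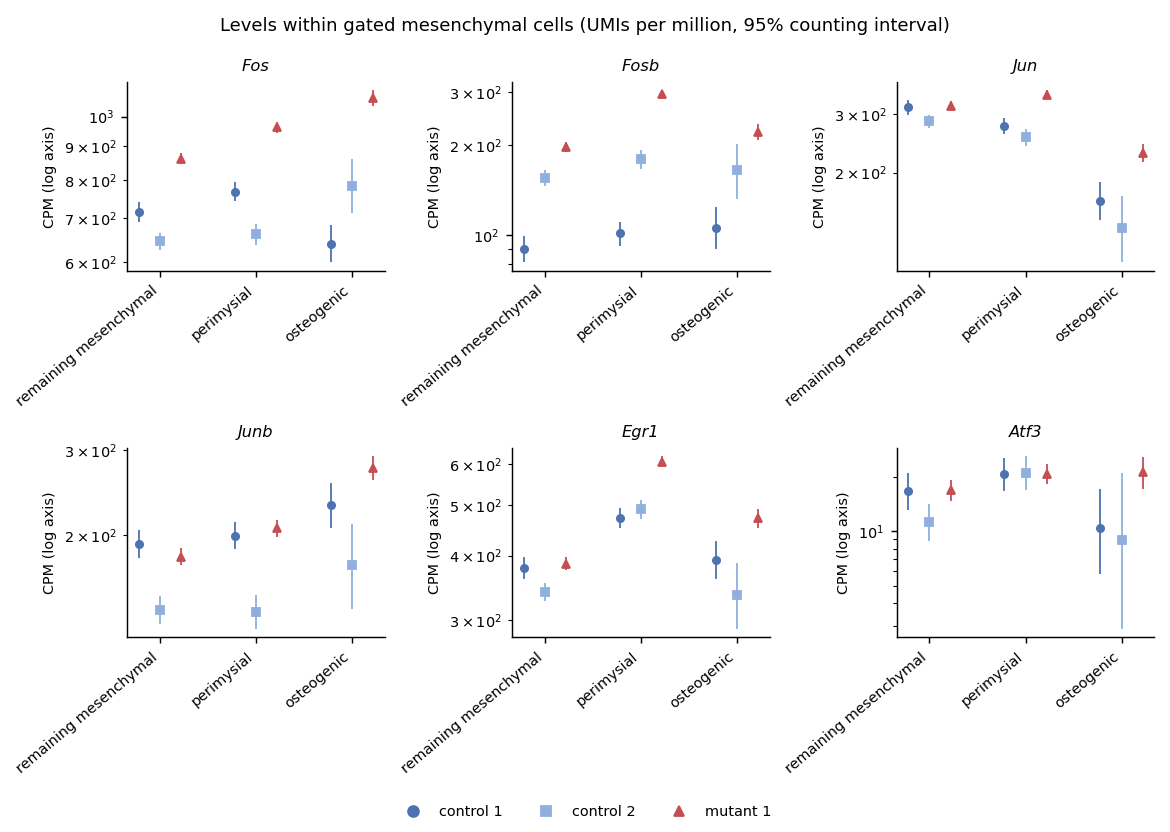
CPM (log axis) of 6 genes in remaining, perimysial and osteogenic mesenchymal cells, 1 point for each library, with 95% exact Poisson intervals. *Egr1* was higher in perimysial cells in every library, and *Jun* was lowest and *Junb* highest in osteogenic cells of each library.

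Dividing mesenchymal cells, 388, 631 and 1211, differed from the others in 6 of the 9 genes tested, by small amounts. *Ier2* was at 399, 230 and 253 CPM in dividing cells and 462, 291 and 292 CPM in the rest, a difference of -0.32 ± 0.05 (edgeR, adjusted p = 7.40e-05). In all 4 genes were lower (*Ier2*, *Junb*, *Jun* and *Fos*) and 2 were higher (*Fosb*, 0.21 ± 0.06, and *Egr1*, 0.15 ± 0.05), against 10.8% and 12.7% of 12391 genes. With total UMIs in place of TMM factors 3 were higher and 2 lower, and without control 2 it was 0 and 2, without the mutant 0 and 4. Of all genes, 2446 were higher and 769 lower of 12391 with total UMIs. Without control 2 it was 1040 and 677 of 13365, and without the mutant 1248 and 1045 of 12488. With mesenchymal cells split in tertiles of mitochondrial share, *Fos* was at 733 and 715 CPM in the highest and lowest tertile of control 1, 703 and 608 CPM in control 2, and 930 and 959 CPM in the mutant, with no common direction. In the mutant *Egr1* was lower in the highest tertile, at 428 against 536 CPM, and in the controls it was not, at 426 against 407 CPM and 418 against 374 CPM.

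With 1 mutant library, the mutant was set beside both controls without a test, and a gene was counted as past the fold where the mutant lay beyond the nearer control by at least 1.5 times. In mesenchymal cells, where the deletion acts, 7 members reached 20 CPM and 0 were past the fold, against 1.24% higher and 2.38% lower of 6637 genes. For *Fos*, *Fosb*, *Jun* and *Egr1*, 4 in all, the mutant lay above both controls by more than the gap between them. The share of all genes that did so is not given, so this count is not a result about the members. *Fos* was higher by 0.43 on the log2 scale against a control gap of 0.15, and *Jun* by 0.21 against 0.05. *Egr1* was higher by 0.26 against 0.09, but by -0.00392 in cells thinned to 2000 UMIs and by 0.0325 as a mean over cells. *Fosb* was higher by 0.93 against a gap of 0.76, 1.46 times the nearer control, and with thinning by 0.65 against 0.78. The median of all genes was -0.04 with total UMIs and 0.08 with TMM factors, a shift of the scale that is not small beside *Jun*, and with TMM factors *Fosb* passed the fold. *Ier2* and *Dnajb1* lay between the controls. Set against control 1 alone, 1 member was higher past the fold (*Fosb*) and 2 were lower (*Ier2* and *Dnajb1*), and against control 2 alone there were 0. The shares of all genes past the fold against 1 control are not given.

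The *Fosb* difference was larger in perimysial cells, at 101.4, 179 and 294 CPM, where the mutant was 1.64 times the nearer control and 1 member was past the fold against 1.64% of genes. In dividing cells it was 1.53 times, again 1 member, against 1.23%. In osteogenic cells *Atf3* was past the fold at 10.4, 8.93 and 21.1 CPM, on 15, 5 and 98 UMIs, against 1.62% of genes. It reached the limit of 20 CPM in the mutant alone, so it was counted only through the library where it was high. The remaining mesenchymal cells had no member past the fold, with *Fosb* at 90.0, 155 and 197 CPM. The median mitochondrial share of kept cells was 3.47%, 3.78% and 2.72% and the median depth 6986, 5143 and 5039 UMIs. The libraries also differed in the cells they held. Gated cartilage cells numbered 0, 2 and 110, neuronal cells 13, 13 and 332, and neutrophils 64, 0 and 0. The part of these traits of the libraries in the differences was not tested.

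In epithelial cells, which the driver is not described to reach, the order was the other way for some genes. *Fos* in the mutant was under either control, with a log2 difference of -0.33 and a control gap of 0.18, but with TMM factors the difference of -0.21 was within a gap of 0.31. *Atf3*, at 120, 73.6 and 42.4 CPM, was 0.576 times the nearer control and the only member past the fold, against 4.66% of 6893 genes lower and 0.522% higher. *Dnajb1* was lower by -0.71 against a gap of 0.66, but with TMM factors its difference too was within the gap. The gap between the controls in *Atf3* was 0.70, and after thinning *Atf3* was not past the fold. Against control 1 alone 4 members were lower past the fold, and against control 2 alone 1 was, with no share of all genes to set beside these counts.

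Myeloid, endothelial and myogenic cells had members above both controls. *Jun* passed the fold in each of the 3 types, at 1.61, 1.61 and 1.58 times the nearer control. In myeloid cells *Atf3* passed too (1.54 times) and *Hspa1a* was lower past the fold on 5 mutant UMIs, which made 2 higher and 1 lower of 9 members, against 3.91% and 6.74% of 6109 genes. *Hspa1a* reached the limit of 20 CPM in control 1 alone, so it was counted only through the library where it was high. In endothelial cells *Egr1* and *Atf3* passed as well, 3 of 8 members, against 2.87% higher and 5.37% lower of 6654 genes, where control 1 gave 23 *Egr1* UMIs. In myogenic cells *Jun* was 1 of 7, against 2.14% higher and 7.66% lower of 5473 genes. After thinning, *Jun* in myeloid cells alone remained past the fold, with the mutant higher by 1.16 on the log2 scale and a control gap of 0.08. Against control 1 alone 7 members were higher in endothelial cells, and against control 2 alone 5 were higher in myogenic and 4 in myeloid cells, so these counts rest on which control is used. No share of all genes is given for these single-control counts, so they are not read as results about the members.

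**Figure D5:**
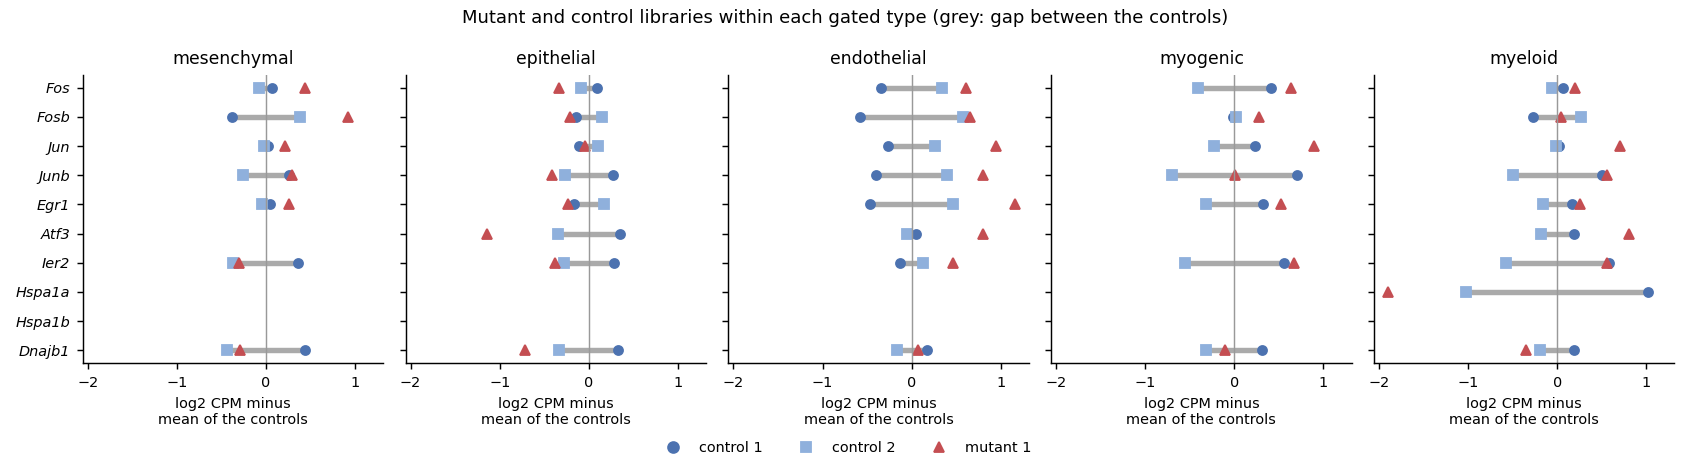
Log2 ratio of the mutant to the mean of the controls (points) in each gated type, with the gap between the controls as the grey bar, for genes of at least 20 CPM. In the mutant *Jun* lay above 0 by more than the gap in mesenchymal, endothelial, myogenic and myeloid cells, and *Atf3* lay at 0.81 in myeloid and -1.15 in epithelial cells.

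The controls differed from each other as well. In mesenchymal cells *Dnajb1*, *Fosb* and *Ier2* had control gaps of 0.88, 0.76 and 0.73 on the log2 scale, larger than the mutant's distance from the control mean for *Dnajb1* and *Ier2*. Control 1 was higher for *Dnajb1* and *Ier2* and lower for *Fosb*. Over all kept cells *Dnajb1* was at 114, 65.2 and 66.6 CPM.

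A wider list of 42 immediate early genes, which holds none of the 10, had its extremes in myeloid and myogenic cells too. Of 37 tested, 25 were higher and 4 lower in myeloid cells, against 22.5% and 21.2% of all genes, with a median log2 difference of 1.61 against -0.11. In myogenic cells 1 was higher and 28 lower, against 19.1% and 21.8%, with a median of -1.50 against -0.13. In mesenchymal cells 11 were higher and 13 lower, against 31.2% and 20.1%. *Klf4*, a zinc finger factor, was higher there by 1.81 ± 0.13 (edgeR), at 246, 300.4 and 366 CPM, and *Jund*, the AP-1 subunit least dependent on a stimulus, by 0.70 ± 0.08. *Btg1*, an inhibitor of proliferation, was at 470, 370 and 333 CPM, and *Zfp36l1*, an RNA-binding factor, at 287, 365 and 344 CPM in mesenchymal cells.

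The heat shock list of 28, likewise without the 10, had most of its higher genes in myogenic cells. Of 26 tested, 18 were higher and 3 lower in myogenic cells, against 19.1% and 21.8% of all genes, with a median of 0.63 against -0.13. In mesenchymal cells 3 were higher and 18 lower, against 31.2% and 20.1%, with a median of -0.51 against 0.09. *Hsp90ab1*, a constitutive chaperone, was higher in myogenic cells by 0.92 ± 0.07 and lower in mesenchymal cells by -0.68 ± 0.07, and *Hspe1*, a mitochondrial co-chaperone, was higher in myogenic cells by 1.21 ± 0.08 (edgeR). *Ubb* was at 1804, 873 and 1786 CPM in mesenchymal cells, with control 2 the lowest, *Hspa8* at 785, 588 and 617 CPM, *Hsp90ab1* at 1261, 1240 and 1626 CPM and *Hspe1* at 664, 580 and 640 CPM. Of 9 tested genes of the integrated stress and unfolded protein list, 5 were higher and 0 lower in myeloid cells, against 22.5% and 21.2% of all genes, 1 was higher and 5 were lower in myogenic cells, against 19.1% and 21.8%, and 2 were higher and 4 lower in epithelial cells, against 21.8% and 15.1%. Its most abundant members in mesenchymal cells were *Hspa5* at 233, 299 and 192 CPM, *Atf4* at 211, 175 and 194 CPM, *Pdia4* at 96.7, 116 and 94.9 CPM and *Xbp1* at 70.6, 69.8 and 70.6 CPM. Of 13 upstream kinases and factors, 4 were higher and 5 lower in myogenic cells, against 19.1% and 21.8% of all genes. *Map2k2* was at 174, 148 and 154 CPM in mesenchymal cells, *Hsf2* at 55.2, 70.3 and 45.5 CPM and *Creb1* at 44.4, 58.2 and 57.6 CPM.

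In the mutant mesenchymal cells 29 of the 42 immediate early genes reached 20 CPM, of which 1 was higher and 1 lower past the fold, against 1.24% and 2.38% of 6637 genes. *Klf2*, a flow-responsive zinc finger factor, was at 41.2, 42.9 and 86.6 CPM, a log2 difference of 1.04 against a control gap of 0.06. *Jund* was at 684, 593 and 366 CPM, a difference of -0.80 against 0.21. *Klf2* was higher than the mean of the other types in endothelial and myeloid cells, by 2.56 ± 0.18 and 2.14 ± 0.19 (edgeR). None of 22 heat shock, 7 stress and 12 upstream genes passed the fold, with medians of -0.05, -0.09 and -0.05 against -0.04 for all genes, while the median of the 29 was 0.13 and that of the 7 members at 20 CPM or more 0.26.

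Across the 15 sums of 5 types and 3 libraries, the 5 genes outside the 10 whose log2(CPM + 1) ran most like that of *Fos*, of 5895 compared, were *Nupr1* (Pearson r = 0.937), *Wwp2* (0.934), *Ifi30* (0.929), *Thbs1* (0.927) and *Rab32* (0.925). Among the 10 the likeness to *Fos* was highest for *Egr1* (0.927) and *Jun* (0.869), lower for *Fosb* (0.818), *Hspa1a* (0.762), *Atf3* (0.699), *Ier2* (0.696) and *Junb* (0.694), and least for *Hspa1b* (0.362) and *Dnajb1* (0.202). The genes most like *Hspa1a* were *Tuba1c* (0.868), *Bscl2* (0.850), *Ncoa4* (0.842), *Prdx5* (0.841) and *Gas7* (0.817). Compared genes had to average 20 CPM, while *Hspa1a* itself averaged 5.71 CPM. Its highest sum, 37.1 CPM in myeloid cells of control 1, held 16 UMIs, so this ranking rests on few counts. These r values share libraries and types and are a description of 15 sums.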

How the data were processed

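Raw UMI counts of single cells from 2 control libraries and 1 mutant library were used as deposited by the authors, who made them with Cell Ranger on mm10; the submitters' processing notes name version 3.1.0 and the matrix header 4.0.0. Filters of at least 500 genes and no more than 10% mitochondrial UMIs left 14049 of 15573 barcodes. A cell took a type where it held at least 3 of its markers and at least 2 more than of any other type. Cells closer to 2 types were left out, which also served as the treatment of doublets, since the Scrublet caller's own threshold marked 0, 0 and 1 cells. UMIs were summed per type and library and tested with edgeR 4.0.16 (R 4.3.3; TMM factors, library as a block, Benjamini-Hochberg over all genes, adjusted p under 0.05) in types of at least 20 cells in every library. The block pairs types taken from the same library. The script was tested on simulated data. The mutant was compared by a 1.5-fold rule among genes of at least 20 CPM in any library, with no test. Shares used cells thinned to 2000 UMIs. Intervals cover counting error only. All 10 genes were described; of the wider lists, the 4 most abundant in mesenchymal cells and those past the fold were named, and *Hsp90ab1*, *Hspe1*, *Klf4*, *Jund* and *Klf2* were given type differences after their values were seen. One gene that this rule names is not reported here. The genes and lists were chosen with earlier results of these data known. Alternatives included DESeq2 1.42.0, total UMIs, other gates and filters, and leaving out each library. scanpy 1.11.5 and Python 3.11.15 were used for the cells.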

Additional observations from a re-analysis of the deposited data

Results flagged for a closer look

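In 3 cases with at least 20 UMIs in every library, the mutant lay above both controls in one cell type and below both in another, each time by more than the gap between the controls. The difference between the types was not tested, since there is 1 mutant library, and no share of all genes is given for such cases. With TMM factors the epithelial *Fos* difference was within the control gap, and after thinning epithelial *Atf3* was not past the fold. *Fos* was higher in mesenchymal cells (0.43 on the log2 scale) and lower in epithelial cells (-0.33), a difference of 0.77. *Fos* was also higher in myeloid cells (0.20), a difference from epithelial cells of 0.53. *Atf3* was higher in myeloid cells (0.81) and lower in epithelial cells (-1.15), a difference of 1.95, where the controls themselves were 0.37 and 0.70 apart. *Atf3* was higher in endothelial cells as well (0.81), on 9 UMIs in control 1. *Fosb*, *Egr1*, *Junb*, *Ier2* and *Hspa1a* also lay on opposite sides in some pair of types, in at least one of them by less than the control gap or on fewer UMIs.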

How the results depend on the processing

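Of 27 calls of a gene in a cell type, all 27 kept their direction under each alternative run for them and 22 were called in each. The exceptions were *Junb* in endothelial and *Atf3* in epithelial cells (each called in 11 of 15), *Egr1* and *Junb* in mesenchymal cells (each 10 of 15) and *Hspa1a* in myogenic cells (8 of 12). The alternatives reuse the same libraries, and no share of all genes is given, so these counts are not a result about the members. They include the *Hspa1a* calls in myeloid and myogenic cells, which rest on the sums that admitted it. *Dnajb1*, not called among types in the main analysis, was called with total UMIs, without the mutant or with types of at least 10 cells. *Atf3* in endothelial cells, not called at -0.25, was called at 0.85 when types of at least 10 cells were admitted, an alternative that adds neuronal, glial and erythroid cells to the mean. Without the library block, which ignores the pairing of types by library, the count of lower members in mesenchymal cells was 1 in place of 2. That of higher members in epithelial cells was 1 in place of 2, and that in endothelial cells 0 in place of 1. In the same order 1697, 2001 and 1703 of all 11659 genes were called. Lower members in mesenchymal cells also numbered 1 with DESeq2, total UMIs or types of at least 10 cells. In this order 2942 of 11659, 1657 of 11659 and 1157 of 10907 genes were lower. Higher members in epithelial cells numbered 4 with types of at least 10 cells, no count filter or total UMIs, and 1 with cells typed by nearest profile. In this order 1981 of 10907, 3281 of 22258, 4190 of 11659 and 2776 of 11779 genes were higher. In the main analysis 2540 of 11659 were, so with total UMIs the count of all genes rose too. Lower members in epithelial cells numbered 3 with no filter and 2 after thinning, in place of 0. Of all genes 1753 of 22258 and 504 of 5829 were lower. Higher members in endothelial cells numbered 0 with DESeq2 and 3 with types of at least 10 cells. Of all genes 1915 of 11659 and 1949 of 10907 were higher. Leaving out 1 library gave 1 to 3 lower in mesenchymal cells, 1 to 4 higher and 0 to 3 lower in epithelial cells, and 0 to 1 higher in endothelial cells. For the first 2 types the counts of all genes stand with the tests above. In endothelial cells 1983 of 11659, 1589 of 11926 and 1350 of 11582 genes were higher without control 1, control 2 and the mutant. In mutant mesenchymal cells 1 member (*Fosb*) was higher past the fold with at least 4 markers, TMM factors or without mitochondrial, ribosomal and globin genes, in place of 0, and leaving out 1 control gave 0 to 1 higher and 0 to 2 lower. In the other types 6 higher and 2 lower became 1 and 0 after thinning and 0 and 0 at 2-fold, and the 2 lower became 6 with no filter and 0 as a mean over cells, while leaving out 1 control gave 10 to 12 higher and 1 to 6 lower. These counts of the mutant under other settings, with or without 1 control left out, have no share of all genes beside them. *Fos* was detected in 89.0%, 85.2% and 90.0% of mesenchymal cells at their own depth and in 72.3%, 72.3% and 82.4% at 3000 UMIs, against 62.8%, 62.5% and 73.7% at 2000. Where no cause is given, the cause was not tested. No paired analysis was possible for the genotype because the mutant is 1 library. Depth limits the Hsp70 genes. *Hspa1b* did not pass the count filter with all 3 libraries. *Hspa1a* did not pass it between types without control 1, after thinning or with types of at least 10 cells.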
